A study of Mus musculus with 18 samples.

Results

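Flour of stored conventionally grown potatoes (PCS) was set against flour of stored organically grown potatoes (POS) in the jejunum of mice. The arrays were chosen by their labels alone, and the comparison uses 6 of the 18 arrays of the series, 3 PCS and 3 POS, with the 3 arrays of water controls (Ctr) beside them. PCS, POS, fresh conventional (PC) and fresh organic (PO) mice were given 30 mg of tuber flour with skin by gavage each day, Ctr mice were given water, and a further group (ADI) a mixture of 9 pesticides. All were male BALB/cOlaHsd mice, 8 weeks of age at day 0, on standard chow, and 3 of the 12 mice of each group were taken at day 20 for RNA from scraped enterocytes, 1 Cy3-labelled Agilent array per mouse. The label of POS mouse 3 is the exception, since it gives day 27 with 7 days of resilience, and the source labels of the POS mice abbreviate their flour as POC. No strain or genotype other than BALB/cOlaHsd is given for any group, and the labels do not say how or for how long the tubers were kept. The labels name separate individuals within each group, but none gives a slide, a scan or an extraction batch.

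Enterocytes are the absorptive cells of the small intestinal lining. They take up lipids, sugars and peptides, package dietary fat with apolipoproteins such as Apoa1, and are exposed to the plant and microbial compounds of a meal. They sit among intraepithelial T cells and secretory cells, and they exchange cytokines and growth signals of the activin and BMP type with them. Scrapings hold more than 1 cell type, and in such bulk RNA fewer cells of a type and less RNA per cell cannot be told apart.

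The deposited intensity table holds 6914 features, of which 5021 have a value on every array and were analysed. The authors paired 51 features with a gene name, and 43 of these genes were among the 5021. The other 8, namely Apom, Bop1, Katnal2, Neil3, Plscr1, S100a14, Shank3 and Trbv13-1, have a blank cell and were not tested. The authors picked the named genes on these same mice, so a count over them is not independent evidence of a direction. Of the markers of enterocytes only Apoa1 carries a name in the files, and of the T cell markers only Cd2. The label of the cells was therefore checked on Apoa1 alone, with intensities of 4683, 12383 and 31826 in the PCS mice, 7549, 22713 and 3387 in the POS mice and 13296, 16287 and 17841 in the Ctr mice. Apoa1 was well above the array median on every one of these arrays, and secretory, myeloid, muscle, neuronal and endothelial cells could not be followed by a named marker.

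Before any gene is read, 1 array stands apart. The median intensity was 89, 159 and 507 on PCS arrays 1, 2 and 3, against 149, 309 and 61 on POS arrays 1, 2 and 3, and 168, 184 and 256 on the Ctr arrays. PCS array 3 was the brightest of all 18 arrays. Across features its Spearman correlation was 0.75 with PCS array 1 and 0.80 with PCS array 2, where PCS arrays 1 and 2 correlated at 0.93 with each other. Its correlation with the Ctr arrays was 0.93 to 0.97 and with POS array 2 it was 0.94, so PCS array 3 ranked its features more like controls than like the other PCS mice. The POS arrays correlated at 0.90 to 0.93 with each other. POS array 2, which ranked 3 of 18 in brightness, was also closer to the controls. It correlated at 0.93 to 0.96 with the Ctr arrays and at 0.90 with POS arrays 1 and 3. These are correlations across features of single arrays, and features are not independent replicates.

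The array medians averaged 7.59 ± 1.28 in PCS mice and 7.14 ± 1.17 in POS mice (log2, SD, n = 3 each). The difference of 0.45 was smaller than the spread within either group (exact two-sided permutation test, p = 0.7, where 3 against 3 allow no p below 0.1). It turned to -0.25 without PCS array 3 and to -0.15 without POS array 3. Differences of genes are therefore given from intensities centred on each array's median, on the log2 scale, with the difference as deposited beside them. Each direction below holds for the scale that is named with it.

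**Figure D1:**
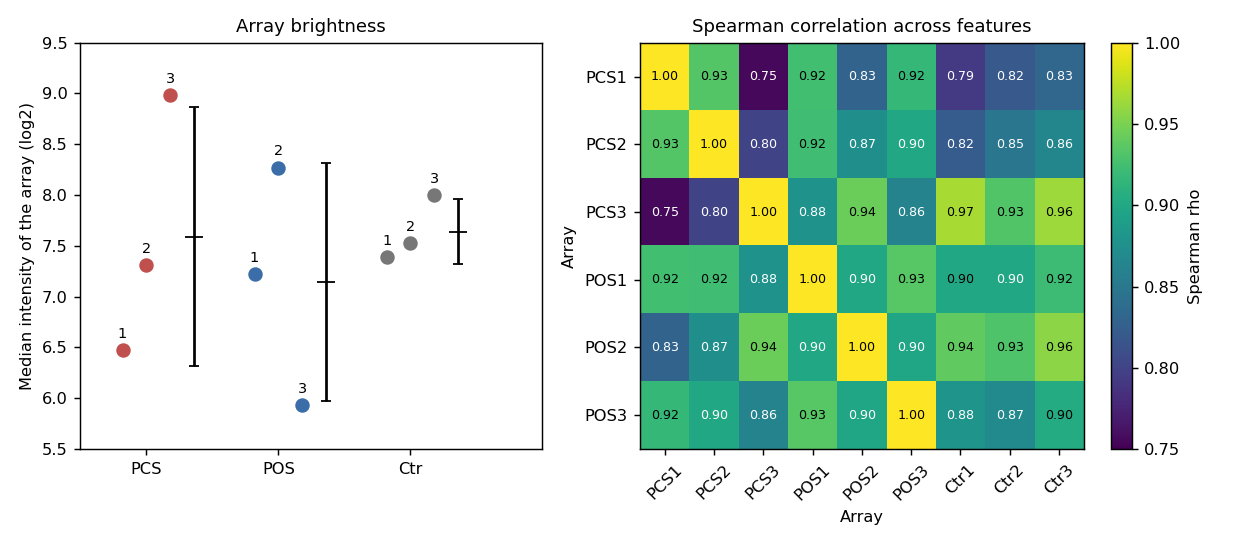
Median log2 intensity of each array (left, numbered points are mice, the black mark is the group mean with its SD, n = 3) and Spearman correlation across 5021 features between the PCS and POS arrays and all PCS, POS and Ctr arrays (right). PCS array 3 is the brightest array and correlates at 0.75 and 0.80 with the other PCS arrays but at 0.93 to 0.97 with the Ctr arrays.

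No feature separated PCS from POS mice at an adjusted p under 0.05. Limma with Benjamini-Hochberg adjustment called 0 of 5021 features (0.0%), and 15 (0.299%) had an unadjusted p under 0.05. As deposited, the counts were again 0 (0.0%), and 2 (0.0398%). Without POS array 3, the day 27 mouse, limma called 0 features and 9 had an unadjusted p under 0.05. Without PCS array 3 the count was 0 with 188, and without both arrays 0 with 151. The spread in this fit is shared by all groups, and takes in PO array 2, whose median intensity was 5. Without PO array 2 limma called 0 features in PCS against POS after centring, and 68 had an unadjusted p under 0.05. The 95% interval of a centred difference reached a median of 1.15 (log2) to either side, a 2.21-fold range, and 1.85 or 3.61-fold for the named genes. As deposited it reached 2.98, or 7.89-fold, so differences inside these ranges were not detectable with 3 arrays a group. These intervals are not adjusted for the 5021 features tested, so larger differences could be missed as well. Centred differences ran from -2.58 to 2.46, with 0 features called.

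The median feature differed by -0.12 between PCS and POS mice after centring and by 0.33 as deposited. Over the 43 named genes the median was -0.095 after centring and 0.36 as deposited. After centring 18 of the 43 named genes were above 0, where 34.1% of all features were. As deposited 41 of the 43 were above 0, where 86.0% of all features were. Without POS array 3, the day 27 mouse, 18 were above 0 after centring, where 35.7% of all features were, and 13 as deposited, where 20.1% were. Leaving out some single PCS or POS array turned the direction of 26 of the 43 genes after centring and of 32 as deposited. None of the 43 had an unadjusted p under 0.05, the smallest was 0.305, for Uhrf1bp1, and limma's adjusted p was 1.00 for each gene named below. Among features with no gene name here, numbers 36504 and 29413 were higher in PCS mice at the smallest unadjusted p, by 1.52 and 1.23, and numbers 15703 and 21994 lower, by -1.79 and -1.29.

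A pattern among the individual mice recurred in many named genes. In 9 of the 43, PCS mice 1 and 2 lay above every POS mouse and PCS mouse 3 lay below every POS mouse, in intensities as deposited, a pattern found in 2.15% of all features. The 9 genes were Noc4l, Rasgef1a, U2af2, Orc5, Csf2, Acvr1b, Slc10a1, Cadm2 and Tmem145. In all 9 the intensity of PCS mouse 3 differed from the number behind the authors' deposited fold change, as described below. It did so in all but 2 of the 20 genes with such a number. After centring the pattern held in 11 of 43, against 4.72% of all features, with Uhrf1bp1, Cd2 and Card14 joining and Noc4l leaving. The opposite arrangement, PCS mice 1 and 2 below and PCS mouse 3 above every POS mouse, held as deposited in 1 of 43, Ufc1 (3.7% of all features), and after centring in 6 (12.0%), namely Bmf, Ank2, Ufc1, Gdf1, Pde4b and H2al2b. Not 1 of the 43 genes had all PCS mice above all POS mice, as deposited (0.996% of all features) or after centring (0.597%). H2-K2 was the 1 gene with all PCS mice below all POS mice, after centring (3.37%) but not as deposited (0.119%).

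**Figure D2:**
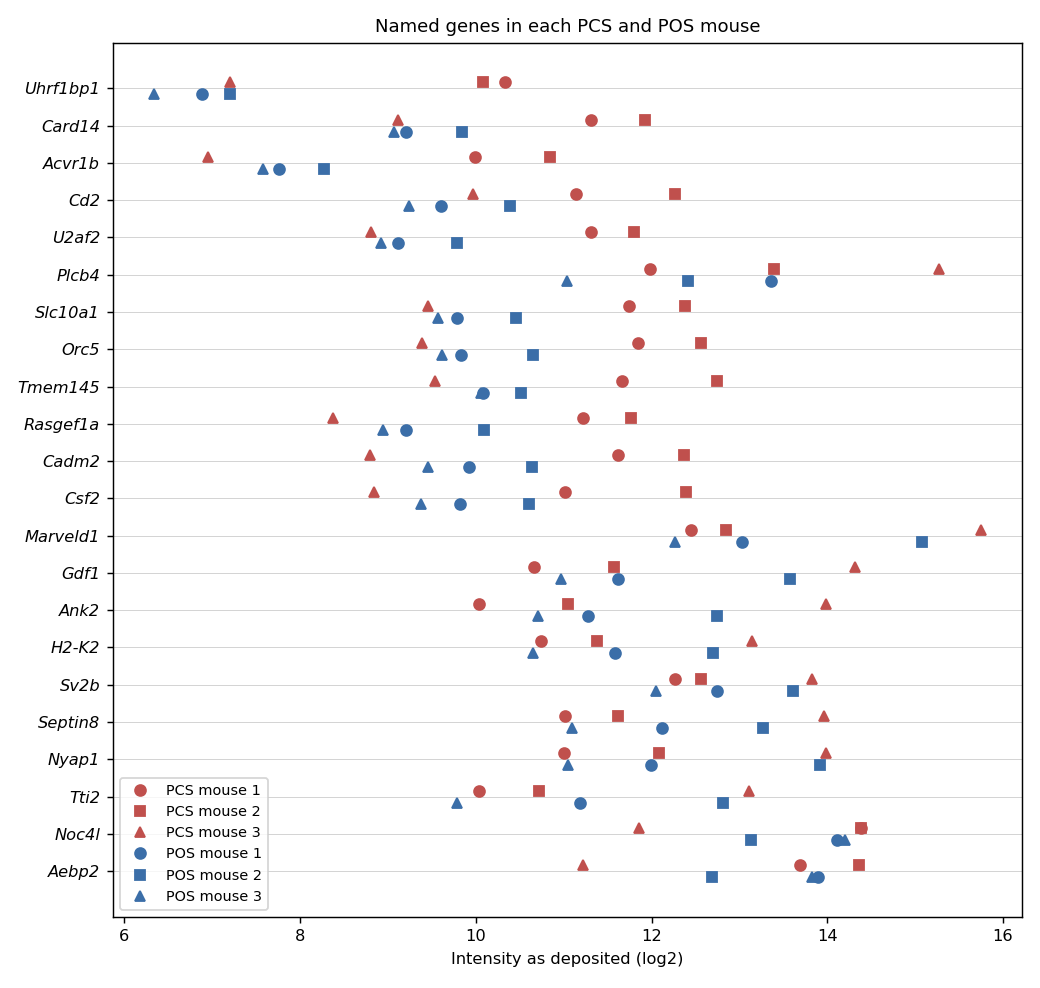
Intensity as deposited (log2) of 22 named genes in each mouse, PCS in red above POS in blue, with circles, squares and triangles for mice 1, 2 and 3. In 9 of the 22 rows the red circle and square lie right of every blue point and the red triangle left of every one, for example Csf2 and Orc5.

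Among the immune genes, Csf2, Cd2 and Card14 were above 0 in PCS minus POS and H2-K2 below it, and none passed the test. Csf2 encodes the growth factor GM-CSF, and had intensities of 2062, 5350 and 457 in PCS mice 1, 2 and 3, against 905, 1552 and 662 in POS mice 1, 2 and 3. PCS mice 1 and 2 were above every POS mouse and PCS mouse 3 below every one. Its log2 intensity was 10.74 ± 1.79 in PCS mice and 9.93 ± 0.62 in POS mice (SD, n = 3 each), and 8.94 ± 0.96 in Ctr mice (SD, n = 3). The centred difference was 0.36 (SE 1.25, 95% interval -2.29 to 3.01), 0.81 as deposited. It was 2.01 without PCS array 3, -0.33 without PCS array 1 and -0.60 without PCS array 2.

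Cd2, an adhesion receptor of T cells, had intensities of 2263, 4937 and 1002 in PCS mice, against 777, 1344 and 605 in POS mice and 530, 445 and 970 in Ctr mice. As deposited the groups overlapped only through PCS mouse 3, which lay below POS mouse 2. The difference was 0.93 (SE 0.93, interval -1.06 to 2.92), 1.38 as deposited, and it was 2.21 without PCS array 3 and 0.22 without PCS array 2. Cd2 is also the 1 T cell marker with a name here, and the part of T cell number in its value was not tested. Card14, a scaffold of NF-kB signalling, had 2537, 3876 and 554 in PCS mice, against 592, 919 and 535 in POS mice. As deposited PCS mouse 3 alone again fell among the POS values. The centred difference was 0.96 (SE 1.13), 1.41 as deposited, 2.49 without PCS array 3 and 0.14 without PCS array 1.

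H2-K2, a gene of the class I region of the major histocompatibility complex, had 1706, 2671 and 9001 in PCS mice, against 3064, 6658 and 1611 in POS mice. As deposited the groups overlapped, with a difference of 0.11. On the centred scale the PCS mice were at 4.26, 4.07 and 4.15, all below the POS mice at 4.36, 4.43 and 4.72. That centred difference was -0.34 (SE 0.69, interval -1.80 to 1.12), and it stayed between -0.42 and -0.24 when any single PCS or POS array was left out.

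Lipid and bile acid genes gave 4 of 5 values above 0 after centring and 5 of 5 as deposited, with none past the test. Slc10a1, the sodium-dependent bile acid transporter best known from hepatocytes, had 3409, 5343 and 704 in PCS mice, against 882, 1406 and 760 in POS mice and 283, 217 and 918 in Ctr mice. PCS mice 1 and 2 were the highest and PCS mouse 3 the lowest of the 6. The difference was 0.80 (SE 1.20, interval -1.75 to 3.36), 1.25 as deposited, 2.37 without PCS array 3 and -0.025 without PCS array 1. Apoa1, a structural protein of high-density lipoprotein, differed by 0.10 (SE 0.84), with values above that overlapped and followed array brightness in both groups. Osbpl9, a lipid transfer protein of the oxysterol-binding family, differed by 0.24, the lysophospholipase-like Lyplal1 by 0.12 (-0.097 without POS array 3) and the acetyl-CoA acetyltransferase Acat3 by -0.33.

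Of the 4 genes of activin, BMP and Hippo signalling, the receptor gene Acvr1b had the highest difference. Acvr1b had 1016, 1830 and 124 in PCS mice, against 217, 310 and 191 in POS mice and 56, 67 and 204 in Ctr mice. PCS mouse 3 was below every POS mouse and the other PCS mice above every one. The difference was 0.94 (SE 1.35, interval -1.93 to 3.81), 1.39 as deposited, with 2.79 without PCS array 3 and 0.0094 without PCS array 2. The ligand gene Gdf1 had 1614, 3038 and 20429 in PCS mice, against 3140, 12215 and 2002 in POS mice, and PCS mouse 3 was here the highest of the 6. Gdf1 differed by -0.32 (SE 0.83) after centring and by 0.13 as deposited. The ligand gene Bmp7 differed by -0.10, and Tead1, the DNA-binding partner of the Hippo effectors, by 0.19. Tead1 rested on PCS mouse 3, whose intensity was 20318 against 548 and 615 in PCS mice 1 and 2, and its difference was -0.82 without that array. Without POS array 3 it was -0.25, and -0.40 as deposited, against 0.65 as deposited with all arrays.

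Second messenger and adaptor genes had 2 of 6 values above 0 after centring and 6 of 6 as deposited. Plcb4, which encodes a phosphoinositide-cleaving phospholipase C, had 4053, 10710 and 39495 in PCS mice, against 10549, 5426 and 2100 in POS mice. Ctr mice had 630, 40 and 8485, and the PCS and POS values overlapped. The difference was 0.83 (SE 1.30, interval -1.94 to 3.60), 1.28 as deposited, 0.66 without PCS array 3 and between 0.33 and 1.34 with any 1 PCS or POS array left out. Plcb4 thus kept its direction in each of these settings, but not with PCS array 3 and POS array 3 both left out and values as deposited, where it was -0.20.

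Rasgef1a, an exchange factor for small GTPases, had 2384, 3492 and 333 in PCS mice, against 589, 1087 and 491 in POS mice. PCS mice 1 and 2 were the highest and PCS mouse 3 the lowest, and the difference was 0.60 (SE 1.27), 1.05 as deposited, 2.33 without PCS array 3, -0.34 without PCS array 1 and -0.20 without PCS array 2. Nyap1, an adaptor of phosphoinositide 3-kinase known from neurons, had 2044, 4319 and 16237 in PCS mice, against 4076, 15505 and 2125 in POS mice. The groups overlapped over nearly their whole range, and the difference was -0.42 (SE 0.81) after centring and 0.031 as deposited. The cyclic AMP genes Prkar1a, whose product holds protein kinase A inactive, and Pde4b, a phosphodiesterase, differed by -0.25 and -0.20, and the adaptor gene Crk by -0.13.

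DNA replication and repair genes gave 1 of 4 values above 0 after centring, that of Orc5. Orc5, a subunit of the origin recognition complex, had 3675, 6035 and 669 in PCS mice, against 909, 1607 and 783 in POS mice and 329, 307 and 1091 in Ctr mice. PCS mouse 3 was below every POS mouse and PCS mice 1 and 2 above every one. The difference was 0.78 (SE 1.22), 1.23 as deposited, 2.42 without PCS array 3, -0.067 without PCS array 1 and -0.0060 without PCS array 2. Tti2, a partner of the large DNA damage kinases, had 1050, 1692 and 8840 in PCS mice, against 2342, 7193 and 884 in POS mice. The values overlapped, and the difference was -0.43 (SE 0.78) after centring and 0.026 as deposited. The helicase gene Recql4 differed by -0.047 and the alkylation repair gene Alkbh2 by -0.20.

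Chromatin and RNA genes included the lowest differences. U2af2, a splicing factor that binds the polypyrimidine tract, had 2545, 3566 and 447 in PCS mice, against 555, 882 and 484 in POS mice. PCS mouse 3 was again the lowest of the 6, and the difference was 0.91 (SE 1.23), 1.37 as deposited, 2.53 without PCS array 3 and 0.020 without PCS array 1. Aebp2, a partner of the Polycomb repressive complex, had 13178, 20985 and 2378 in PCS mice, against 15133, 6596 and 14558 in POS mice and 2358, 1449 and 6758 in Ctr mice. As deposited PCS mouse 3 lay within the Ctr range and below every POS mouse. The difference was -0.83 (SE 1.80, interval -4.66 to 3.00), -0.38 as deposited, and it was -0.046 without POS array 3, the day 27 mouse, and 0.80 without PCS array 3. Noc4l, a nucleolar protein of ribosome assembly, had 21286, 21262 and 3726 in PCS mice, against 17731, 8977 and 18838 in POS mice and 3122, 2557 and 10187 in Ctr mice. Its difference of -0.73 (SE 1.77), -0.28 as deposited, turned to 0.81 without PCS array 3 and to 0.070 without POS array 3. Of the chromatin remodelling helicases, Chd4 differed by 0.35 and Chd3 by -0.095, and the histone gene H2al2b by -0.037. Chd4 was at -0.90 without PCS array 3.

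Ufm1, a ubiquitin-like protein, and Ufc1, the enzyme that conjugates it, both set PCS mouse 3 far above the other PCS mice. Ufm1 had 1545, 1276 and 38700 in PCS mice, against 10506, 3684 and 1235 in POS mice. Ufc1 had 498, 448 and 34726 in PCS mice, against 4305, 2180 and 658 in POS mice. For Ufc1, PCS mice 1 and 2 were thus below every POS mouse while PCS mouse 3 was above every one. Ufm1 differed by -0.23 and Ufc1 by -0.34 after centring, by 0.22 and 0.11 as deposited, and by -1.12 and -1.71 without PCS array 3 after centring. Neither passed the test in any of these fits.

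The apoptosis genes Thap1, Bmf and Glcci1 differed by -0.0041, -0.12 and -0.17, and as deposited by 0.45, 0.33 and 0.28. Nat2, an arylamine N-acetyltransferase that acts on aromatic amines, had 967, 2385 and 9897 in PCS mice, against 2146, 5929 and 1203 in POS mice. Its values overlapped, with a difference of -0.26 (SE 0.68) after centring and 0.19 as deposited.

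Membrane and cytoskeleton genes were split, 4 of 8 being above 0 after centring and 8 of 8 as deposited. Uhrf1bp1, a lipid transfer protein of the bridge-like family, had 1289, 1083 and 147 in PCS mice, against 118, 147 and 81 in POS mice and 65, 427 and 118 in Ctr mice. As deposited PCS mice 1 and 2 were far above the POS mice and PCS mouse 3 was level with POS mouse 2. The difference of 1.95 (SE 1.83, interval -1.96 to 5.85), 2.40 as deposited, was the largest of the 43, and it was 3.65 without PCS array 3 and 0.82 without PCS array 1. Tmem145, a transmembrane protein, had 3245, 6889 and 741 in PCS mice, against 1079, 1459 and 1067 in POS mice. Cadm2, a cell adhesion molecule, had 3137, 5295 and 443 in PCS mice, against 970, 1597 and 704 in POS mice. Both genes had PCS mice 1 and 2 highest and PCS mouse 3 lowest. Tmem145 differed by 0.65 (SE 1.23), 1.10 as deposited, 2.24 without PCS array 3, -0.082 without PCS array 1 and -0.21 without PCS array 2. Cadm2 differed by 0.47 (SE 1.28), 0.92 as deposited, 2.23 without PCS array 3, -0.44 without PCS array 1 and -0.39 without PCS array 2.

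Toward lower values, Sv2b, a synaptic vesicle glycoprotein, had 4939, 6056 and 14565 in PCS mice, against 6912, 12475 and 4239 in POS mice. Septin8, a cytoskeletal GTPase, had 2074, 3154 and 15881 in PCS mice, against 4440, 9872 and 2177 in POS mice. In both genes PCS mouse 3 was the highest of the 6 as deposited, and the groups overlapped. After centring PCS mouse 3 was the lowest of the 6 for Sv2b, at 4.84. Sv2b differed by -0.37 (SE 0.43) and Septin8 by -0.41 (SE 0.73) after centring, but by 0.084 and 0.041 as deposited. Ank2, which ties membrane proteins to the cytoskeleton, had 1052, 2113 and 16239 in PCS mice, against 2493, 6850 and 1671 in POS mice. Marveld1, a membrane protein of the MARVEL family, had 5583, 7369 and 55207 in PCS mice, against 8385, 34603 and 4932 in POS mice. As deposited the 3 highest arrays of each were PCS mouse 3, then POS mice 2 and 1. Ank2 differed by -0.34 (SE 0.72) and Marveld1 by -0.23 (SE 0.59) after centring, but by 0.11 and 0.22 as deposited. Marveld1 was also above 0 after quantile normalization, at 0.097, and without PCS array 2, at 0.049, and POS array 2, at 0.015. The potassium channel gene Kcnd1 differed by 0.070 (SE 0.73), and it was 0.46 without PCS array 3, -0.33 without PCS array 2 and -0.21 without POS array 3.

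**Figure D3:**
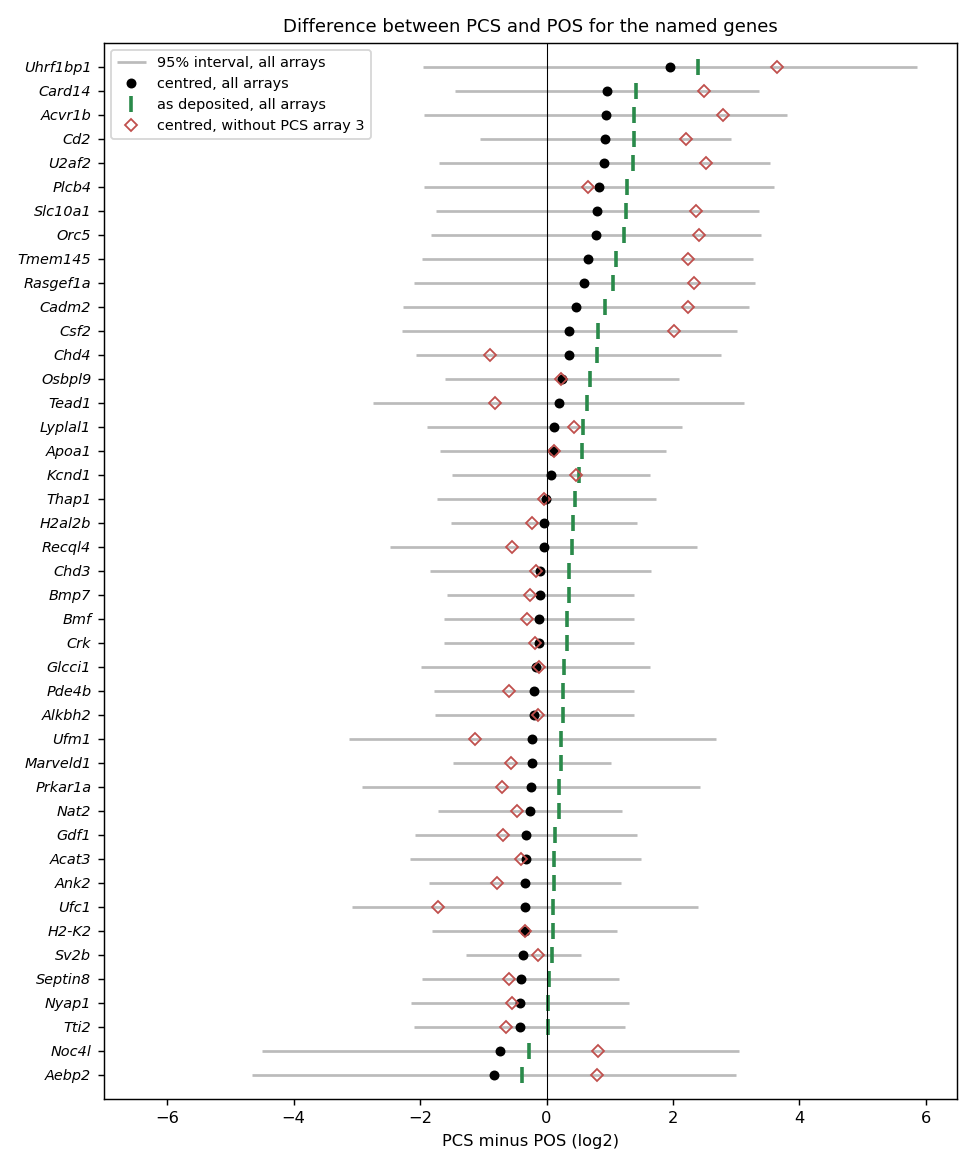
PCS minus POS (log2) of the 43 named genes, with all arrays centred (black points, grey 95% interval), as deposited (green bars) and centred without PCS array 3 (red diamonds). Every interval crosses 0, and 11 genes are at 2 or more without PCS array 3, where Noc4l and Aebp2 turn above 0 and Chd4 and Tead1 below it.

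Many named genes moved when PCS array 3 was left out. Without it 11 of the 43 were at a centred difference of 2 or more, where 3.37% of all features were, and 7 as deposited, where 2.57% were. These 11 were Uhrf1bp1, Rasgef1a, U2af2, Orc5, Csf2, Cd2, Card14, Acvr1b, Slc10a1, Cadm2 and Tmem145. Of them 7, Rasgef1a, U2af2, Orc5, Cd2, Card14, Acvr1b and Slc10a1, had an unadjusted p under 0.05 after centring, where 2.31% of all features had one and were higher. As deposited none of these 7 did, and of the 43 genes only 1, Uhrf1bp1, had one and was higher, where 0.677% of all features were. Limma's adjusted p was 0.999 for each of the 7 after centring. That fit rests on PCS mice 1 and 2, and the choice of the array left out was made with the values known.

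Against water, the centred group means of these 11 genes were above controls in both groups, and the 2 comparisons share the 3 Ctr arrays. PCS mouse 3 was nonetheless below the centred Ctr mean in each of the 11. It was at -0.19 against 1.28 for Cadm2, for example, and at -2.03 against -1.12 for Acvr1b. The PCS means above controls thus rest on PCS mice 1 and 2. The 11 genes were chosen by their PCS minus POS difference without PCS array 3, which uses the same values of PCS mice 1 and 2. High PCS values were thus favoured by the choice, and the differences from controls are a description. Over the 11 genes the centred difference ran from 1.85 (Csf2) to 2.79 (Acvr1b) for PCS minus Ctr. For POS minus Ctr it ran from 0.09 (Uhrf1bp1) to 1.85 (Acvr1b and Slc10a1). As deposited it ran from 1.80 (Csf2) to 2.75 (Acvr1b) for PCS minus Ctr, and for POS minus Ctr from -0.41 (Uhrf1bp1), which was then below controls, to 1.36 (Acvr1b). None of the genes passed the test. Limma called 0 of 5021 features (0.0%) in PCS against Ctr, with 231 (4.6%) at an unadjusted p under 0.05, and 0 (0.0%) in POS against Ctr, with 237 (4.72%). As deposited it called 0 in each, with 50 (0.996%) in PCS against Ctr and 17 (0.339%) in POS against Ctr at an unadjusted p under 0.05. Without PO array 2, after centring, limma called 0 in each. At an unadjusted p under 0.05 there were then 629 in PCS against Ctr and 547 in POS against Ctr.

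The difference between cultivation systems in stored flour was also set against that in fresh flour, as PCS minus POS less PC minus PO. The 11 genes were chosen by their PCS minus POS difference, which is a term of the interaction, so their values are a description. For them the centred PC minus PO difference ran from -1.28 (Uhrf1bp1) to -0.18 (Cd2), and the interaction from 0.80 (Csf2) to 3.23 (Uhrf1bp1). PO array 2, with a median intensity of 5, weighed on the ends of both ranges. Without it the PC minus PO difference turned to 1.40 for Uhrf1bp1, 0.097 for Csf2 and 0.11 for Cadm2. The interaction without it was 0.54 for Uhrf1bp1, 0.27 for Csf2 and 0.36 for Cadm2, and at most 1.40, for Card14. In the other genes of the 11 the interaction moved less, for example from 1.21 to 1.17 for Slc10a1 and from 1.37 to 1.15 for U2af2. Tead1 and Plcb4 were at -4.32 and -4.09, where their PC minus PO difference was 4.51 and 4.92, and at -5.07 and -4.55 without PO array 2. Limma called 0 of 5021 features (0.0%), with 356 (7.09%) at an unadjusted p under 0.05, and 0 (0.0%) as deposited, with 1 (0.0199%). A difference particular to stored flour was therefore not shown for any gene.

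The authors' deposited table lists 22 of the named genes for PCS and POS, with a fold change per mouse against the mean of the controls. These are on the log2 scale where they could be resolved, except for the 3 POS values of Uhrf1bp1, which are linear ratios. Of the 22, 20 are among the 43 analysed. As deposited, these 20 and the other 23 named genes differed in where PCS mouse 3 lay. In the other 23 genes PCS mouse 3 was above every POS mouse in 23 of 23 as deposited, where 77.1% of all features were. In the listed 20 it was above every POS mouse in 5, below every one in 10, where 3.03% of all features were, and among them in 5. These counts are as deposited, the scale on which PCS array 3 was the brightest array. After centring PCS mouse 3 was above every POS mouse in 12 of the 43 named genes, where 29.36% of all features were. Of these 12, only Plcb4, Tead1, Recql4 and Osbpl9 were among the listed 20. On that scale PCS mouse 3 was below every POS mouse in 18 of the 43, where 30.45% of all features were. Of these 18, all but Alkbh2, H2-K2 and Sv2b were among the listed 20. Without PCS array 3 the centred difference was above 0 in 17 of the listed 20, with a median of 2.11, and in 1 of the other 23, with a median of -0.46, where 33.2% of all features were above 0. The authors chose the list on these mice, so this split is a description.

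Whole numbers behind most of those fold changes could be recovered, and they were set against the deposited intensities of the same mice. In the authors' deposited table all 60 PCS values of the 20 genes resolved to whole numbers. Of these 22 equalled the deposited intensity, 34 differed from it in 1 decimal digit and 4 in more. Here 1 digit means 1 digit changed, added or absent, as in 2457 against 457 for Csf2 in PCS mouse 3. The last 2 digits were the same in 59 of the 60. For the POS mice 48 of 60 values in the authors' deposited table resolved, of which 18 were equal, 18 differed in 1 digit and 12 in more, with the last 2 digits the same in 46. PCS mouse 3 had 2 equal values, against 13 for PCS mouse 1 and 7 for PCS mouse 2. Among resolved values 9 of 15 were equal for POS mouse 1, 3 of 17 for POS mouse 2 and 6 of 16 for POS mouse 3. More than 1 digit differed in 8 values of POS mouse 2 and in 2 of PCS mouse 3.

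Csf2 shows the kind of difference. Its numbers behind the authors' deposited table were 2062, 2350 and 2457 in PCS mice 1, 2 and 3, where the deposited intensities were 2062, 5350 and 457. For POS mice 1, 2 and 3 the numbers behind the authors' deposited table were 605, 552 and 662, where the deposited intensities were 905, 1552 and 662. In the authors' deposited table the 3 PCS mice thus lie together and above every POS mouse. For Orc5 the PCS numbers behind the authors' deposited table were 3675, 3035 and 3669, where the deposited intensities were 3675, 6035 and 669.

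In the authors' deposited table the PCS numbers lay closer together, by their SD on the log2 scale, than the intensities in 20 of 20 genes. Their median SD was 0.13, against 1.64 in the intensities. The POS numbers also lay closer together, in 15 of the 15 genes with all 6 numbers resolved, with a median SD of 0.10 against 0.68. Over the 15 genes with all 6 numbers resolved, the 3 PCS mice were above the 3 POS mice without overlap in 14 genes in the authors' deposited table and in 0 in the intensities. The median PCS minus POS difference of these 15 was 0.98 behind the authors' deposited table and 0.70 in the intensities as deposited. PCS mouse 3 was above the controls in 20 of 20 genes in the authors' deposited table and in 14 of 20 in the intensities. For Csf2 its log2 fold change was 2.84 in the authors' deposited table and -0.33 in the intensities, and for Cadm2 2.98 and -0.36. The sum of the 3 controls behind the authors' deposited table equalled that of the intensities in 1 of 20 genes. The authors chose the listed genes on these same mice. The counts of PCS mice above POS mice or controls in their table are therefore a description.

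The 9 genes with the pattern of PCS mouse 3 below every POS mouse all stand in the authors' deposited table. The value of PCS mouse 3 differed between the tables in 9 of 9, that of PCS mouse 2 in 6 and that of PCS mouse 1 in 1. Of the 11 genes with that pattern after centring, PCS mouse 3 differed in 10, the exception being Cd2, and PCS mouse 2 in 8. Over all 20 listed genes PCS mouse 3 was equal in only 2, so its counts here are near the share of the whole list. Which of the deposited tables holds the measured values was not tested, and the results above use the intensities.

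**Figure D4:**
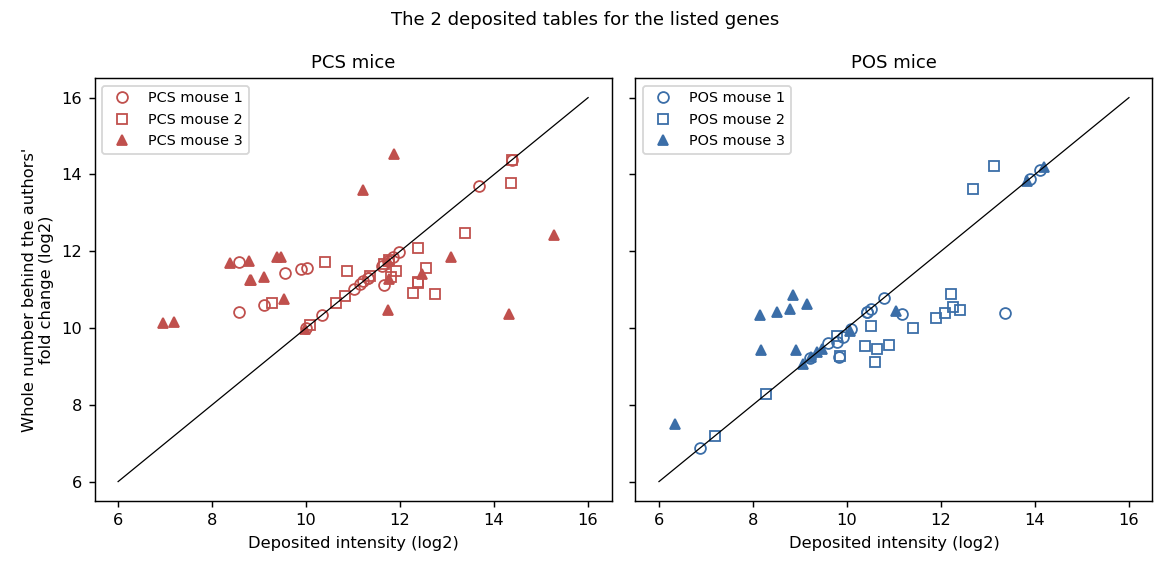
Whole number behind each log2 fold change of the authors' deposited table against the deposited intensity of the same mouse and gene (both log2), for PCS mice (left) and POS mice (right), with a line where they are equal. PCS mouse 3 (filled triangles) is on the line in 2 of 20 genes, and points lie both above and below it.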

How the data were processed

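Arrays were read with Agilent Feature Extraction, per the submitters' processing notes, whose version, background step and choice of features the sources used here leave out. Deposited intensity values were linear whole numbers, and the authors' scaling between arrays, if any, left the array medians far apart. In the complete features of the PCS and POS arrays 9 were at or below 0 and the highest was 65501. The authors' deposited table gives fold changes per mouse against the control mean for 51 genes, and for PCS and POS mice these resolved on the log2 scale, except POS values that are linear ratios (3, of Uhrf1bp1) or could not be resolved. Its 4 header lines, per the file headers, say that folds between 0.5 and 2 were set to 0. Of the values of listed genes that resolved on the log2 scale, 4 of 66 in PCS mice and 42 of 49 in POS mice were nonetheless under 1 and not 0. That table supplied the gene names, and each of the 51 was found as a symbol in the RefSeq genes of GRCm38.p6. No column of values lacked a sample (0 columns). No genome build is named, so no coordinates are given.

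Features blank on any array (1893, all on PCS array 3) were left out. Values were set to at least 1, log2 transformed and centred on each array's median, and 6 group means were fitted to 18 arrays in limma 3.58.1 (R 4.3.3), lmFit and eBayes without trend, with Benjamini-Hochberg adjustment at 0.05. All groups share 1 estimate of the spread. Named genes were the 10 higher and 10 lower with the smallest unadjusted p plus any gene whose groups did not overlap, and other named genes by role. Csf2 and Cadm2, and other genes outside that rule with values per mouse, were picked with their values in view. The members and gene lists were chosen with earlier results of these data known. Whole numbers behind the fold changes were taken from the smallest control sum, up to 200000, that made a gene's numbers whole within a relative tolerance of 1e-08. The fit was tested on simulated data. Alternatives were other scalings, floors, filters, weights, blocks and left-out arrays. Python 3.11.15, pandas 2.3.3 and scipy 1.17.1 were used. Precision is limited by the number of arrays and by the shared spread, which takes in PO array 2.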

Additional observations from a re-analysis of the deposited data

Results flagged for a closer look

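In the 1893 features left out for a blank cell, the PCS array 2 column had a median intensity of 1345 and the POS array 1 column 760, where the Ctr columns reached at most 660. These data lie outside the comparisons of the report. In the row of Neil3, a DNA glycosylase gene left out for its blank cell, the numbers behind the authors' deposited table for PCS mice 2 and 3, 1091 and 1164, stand in the columns of PCS mice 1 and 2. The cause was not tested. Groups of 3 arrays are too small for a rule on single outlying samples, so none was applied.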

How the results depend on the processing

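PCS against POS gave 0 features in 27 of 28 alternatives. Array quality weights, which had not converged, gave 10 there, 1912 in PCS against Ctr, 1102 in POS against Ctr and 927 in the interaction, and the cause was not tested. In fits of the 2 groups alone as deposited, PCS against Ctr gave 1 and POS against Ctr 11. With 1 array left out PCS against Ctr gave 0 to 1 (1 without PCS array 3) and POS against Ctr 0 to 1 (1 without Ctr array 2 or POS array 2). With the replicate number as a block PCS against POS gave 0, with 18 at an unadjusted p under 0.05. Deviations of same-numbered arrays from their group means correlated at 0.28, -0.23 and -0.36. Those of differently numbered arrays reached -0.60 (PCS array 1 with POS array 2) and 0.55 (PCS array 3 with POS array 2). With 3 arrays a group single arrays weigh heavily, so these values cannot show whether same-numbered mice were paired. Brightness ran from -0.25 to 1.02 with 1 array left out, at -0.25 without PCS array 3 and -0.15 without POS array 3. The median named gene was 0.36 as deposited and 0.10 after quantile normalization. As deposited Marveld1, Gdf1, Ank2, H2-K2, Sv2b, Septin8, Nyap1 and Tti2 turned to 0.22, 0.13, 0.11, 0.11, 0.084, 0.041, 0.031 and 0.026. Marveld1 was 0.097 after quantile normalization. With any 1 PCS or POS array, or PCS array 3 and POS array 3 together, left out, the ranges were -0.025 to 2.79 for Slc10a1, -0.067 to 2.81 for Orc5, -0.21 to 2.77 for Tmem145, -0.34 to 2.70 for Rasgef1a, -0.57 to 0.049 for Marveld1, -1.71 to 1.61 for Noc4l, -1.79 to 1.59 for Aebp2, -0.62 to 0.087 for Sv2b, -0.60 to 2.34 for Csf2 and -0.44 to 2.56 for Cadm2. Noc4l was 0.81 and Aebp2 0.80 without PCS array 3. Without PCS array 3 and as deposited, Noc4l was 0.56 and Aebp2 0.55. Without PCS array 3 and POS array 3, Noc4l was 1.61, Aebp2 1.59 and Sv2b 0.087, and as deposited 0.75, 0.74 and, for Plcb4, -0.20. The smallest control sum may miss equal cells whose numbers share a factor.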
